A study of Mus musculus with 56 samples.

Results

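Microglia of a neuronal reporter mouse were sorted by whether they held green fluorescence, and the RNA of the fluorescent cells (Tau-GFP plus) was set against that of the cells without it (Tau-GFP negative). The comparison comprised 16 of the 56 samples of the series, 8 Tau-GFP plus and 8 Tau-GFP negative, chosen by their sample titles and not by any measured value. All 16 came from cortex of mice of B6/129 background that carried Mapt tm1(EGFP)Klt, an allele that places EGFP under control of Mapt, the gene of the axonal protein tau. Both fractions therefore carry the reporter allele, whose zygosity the labels do not state. The sample labels give the age as postnatal day 10 and the design text as day 9. No treatment is given for these samples. The labels do not say whether libraries with different numbers came from different animals, so p-values measure the spread between these libraries, which may be in part technical. The full-length RNA was amplified from few cells by Smart-seq2, a protocol without molecular identifiers that does not mark the strand.

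Microglia are the resident macrophages of the brain, and in the first postnatal weeks they engulf dying cells and synaptic material. Tau is a protein of neurons, and fluorescence inside a microglial cell of this mouse is therefore read as neuronal material taken up. Cells are taken up through receptors for phosphatidylserine, complement and lipids, and the cargo is broken down in lysosomes acidified by a proton pump. Border-associated macrophages of the meninges and vessels are close relatives of microglia that share many surface proteins with them, CD11b among them. The design text gives the purpose of the sort as describing microglia engaged in phagocytosis.

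The rest of the series holds 8 droplet single-cell libraries of cortical cells, 14 libraries of cultured microglia, and 18 libraries of cortical microglia sorted for TMRM. TMRM is a dye of polarised mitochondria, and these libraries are labelled day 9. The single-cell libraries are of wild-type mice at day 9 (P9) or day 28 (P28), and of ST2 Het and ST2 KO mice at P9. ST2 is the receptor of IL-33. All 8 single-cell libraries were clustered together. The cultured microglia, labelled day 5 to 8, had medium alone or IL-33 at 200 ng/ml for 3 h. The Tau-GFP libraries held 7996937 to 11285830 expected counts each, and levels are given as CPM (counts scaled to a common library size) after TMM scaling. A count was found for 15980 to 16320 genes in the plus libraries and for 14334 to 14865 genes in the negative libraries, and these ranges did not overlap. To tell transcripts of microglia from those of other cells, each gene was placed in a class by its level in the P9 wild-type single-cell libraries, which the sort did not use. These libraries held 2553 and 2214 microglia-like cells, 249 and 226 border-macrophage-like cells, and 49 and 52 cells of a cluster led by Cldn5 and Itm2a. That endothelial cluster also contained transcripts of neurons, with 974 CPM over the neuron marker list against 36.9 CPM in microglia-like cells. A gene was called border-macrophage-led or endothelial-cluster-led where its level in that class was at least 10 CPM and at least 3 times that of microglia-like cells. Microglia-led genes had at least 10 CPM in microglia-like cells of both libraries and no higher level in either other class.

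The reporter gene itself was close to the detection limit in both fractions. Mapt (chromosome 11, 104231390 to 104332090, plus strand, GRCm38) had a lowest level of 0.112 CPM, a median of 0.513 and a highest of 0.981 CPM in plus libraries, and 0, 0.157 and 0.224 CPM in negative libraries. These levels are 1 to 8 counts per plus library and 0 to 2 counts per negative library, and Mapt did not pass the low-count filter, so it was not tested. EGFP itself was not analysed here. Other neuronal transcripts were well above this and were higher in the plus fraction. Of the 22 neuron markers 16 were tested and 15 were called higher at an adjusted p under 0.05, against 20.7% of all 12138 genes tested, and their median log2 fold change was 3.53, against 0.007 over all genes. The summed level of the list ran from 155 CPM through a median of 306 to 404 CPM in plus libraries, and from 21.4 through 30.7 to 52.7 CPM in negative libraries. In bulk libraries a larger number of neurons or neuronal fragments, more neuronal RNA per sorted cell and RNA taken up by microglia cannot be told apart, and likewise fewer cells of a type and less RNA per cell. Nefm was at 0 in all 8 negative libraries.

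The neuronal transcripts included those of young and inhibitory neurons. Tubb3, a neuronal tubulin, had a lowest, median and highest level of 30.2, 62.0 and 89.3 CPM in plus libraries and of 0, 3.02 and 4.53 CPM in negative libraries, a log2 fold change of 4.45 ± 0.39 (SE; edgeR adjusted p = 1.57e-07). Dcx, a microtubule protein of migrating young neurons, had 6.78, 16.8 and 23.8 CPM in plus libraries and 0.104, 0.654 and 1.90 CPM in negative libraries (4.37 ± 0.40). Dlx1, a homeobox factor of forebrain inhibitory neurons, had 5.65, 12.3 and 32.2 CPM in plus libraries, against 0 in 7 negative libraries and 0.527 CPM in negative library 5. No plus library overlapped the negative range for any of these genes. Over all libraries of a group Dlx1 had 1133 counts in the plus and 5 in the negative fraction. Other genes followed the same pattern: Dlx5 had 438 counts in plus and 1 in negative libraries, Sp8 had 713 and 3, and Reln, the extracellular protein reelin, had 501 and 2. Reln in CPM was 254.7 times higher in the plus fraction, with a 95% interval of 70.1 to 2109 that covers counting error only. Dlx6as1, transcribed opposite Dlx6, had 1049 counts in plus and 1 in negative libraries, and without strand its reads cannot be told from those of Dlx6. The inhibitory enzyme gene Gad2 had 2.94, 7.10 and 14.8 CPM in plus libraries and 0.391, 1.29 and 2.28 CPM in negative libraries. Slc17a7, the vesicular transporter of cortical excitatory neurons, had at most 0.471 CPM in plus and 0.112 CPM in negative libraries and was not tested.

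Transcripts of border-associated macrophages were the other large difference. All 8 markers of these cells were called higher in the plus fraction, against 20.7% of all genes tested and 77.6% of border-macrophage-led genes. Their median log2 fold change was 5.11. For all 8 every plus library exceeded every negative library, a pattern found for 6.82% of all genes tested. The summed level was 2760.5 to 7750 CPM in plus libraries and 469 to 732 CPM in negative libraries. Lyve1, a hyaluronan receptor of perivascular macrophages, had 283, 363 and 999.7 CPM in plus libraries and 0, 9.13 and 14.7 CPM in negative libraries (5.72 ± 0.43, edgeR adjusted p = 3.78e-08). F13a1, a transglutaminase gene, had 499, 651 and 1848 CPM in plus libraries and 1.15, 20.5 and 34.9 CPM in negative libraries (5.33 ± 0.43). For both genes the top value was that of plus library 5, and the other 7 plus libraries still stood above all negative ones. Mrc1, the mannose receptor, was higher by less, with 1515 CPM on average in plus and 499 CPM in negative libraries (1.60 ± 0.14). Ccl8, a chemokine, had 753 counts over the plus libraries and none in any negative library, at least 255.2-fold higher in CPM against a floor of 3 counts over the group.

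Markers of mural and glial cells were also higher in plus libraries. All 7 tested mural markers were called higher, against 20.7% of all genes tested. Of the 7, 3 are endothelial-cluster-led, a class of which 61.3% were called higher. Another 3, under 1 CPM in microglia-like cells and led by neither other class, are of a class with 37.8% called higher. Pdgfrb, the pericyte receptor, had 10.9, 19.3 and 49.3 CPM in plus libraries and 0, 0.523 and 2.24 CPM in negative libraries. Of 10 astrocyte markers 8 were called higher, against the same 20.7%. Among them, the gap junction gene Gja1 had 15.5, 38.9 and 77.7 CPM in plus and 1.58, 5.56 and 14.8 CPM in negative libraries. The only tested marker of oligodendrocyte precursors, Ptprz1, was higher by 3.96 ± 0.60 on the log2 scale. Mature oligodendrocyte markers gave 1 lower call of 4 tested, Mag, which is 1 of 2 of them that microglia lead. The other 2, of low level in P9 microglia-like cells, had a median log2 fold change of 1.22 without a call. No neutrophil or erythroid marker passed the filter, so none was tested. The summed erythroid list, of globin genes and the heme synthesis gene Alas2, was nonetheless high in 3 plus libraries, with 511.53, 568.99 and 736.81 CPM in plus libraries 5, 6 and 7, against at most 6.08 CPM in the other plus libraries and 12.5 CPM in any negative library. Without these 3 libraries, a choice made after seeing the data, 2314 genes were called higher and 1747 lower, and the neuron, border macrophage and mural lists gave 15, 8 and 7 higher calls as before. The part of erythroid RNA in the other results was not tested.

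The endothelial calls depended on single libraries. Of 10 markers, all endothelial-cluster-led, 6 were called higher, against 20.7% of all genes tested and 61.3% of endothelial-cluster-led genes. Without plus library 3 only 1 was called higher. Leaving out plus library 1 or 8 left 3 calls, and leaving out negative library 1, 2, 3, 5, 6 or 7 left 2. Itm2a, a membrane protein of brain endothelium, had 5.93, 44.7 and 621 CPM in plus libraries and 3.71, 9.01 and 61.0 CPM in negative libraries. Its highest value was that of plus library 3, the groups overlapped, and without that library its log2 difference was 0.97 with an edgeR adjusted p of 0.284, against 2.44 with it. Left out in turn, 7 of the 16 libraries ended its call.

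**Figure D1:**
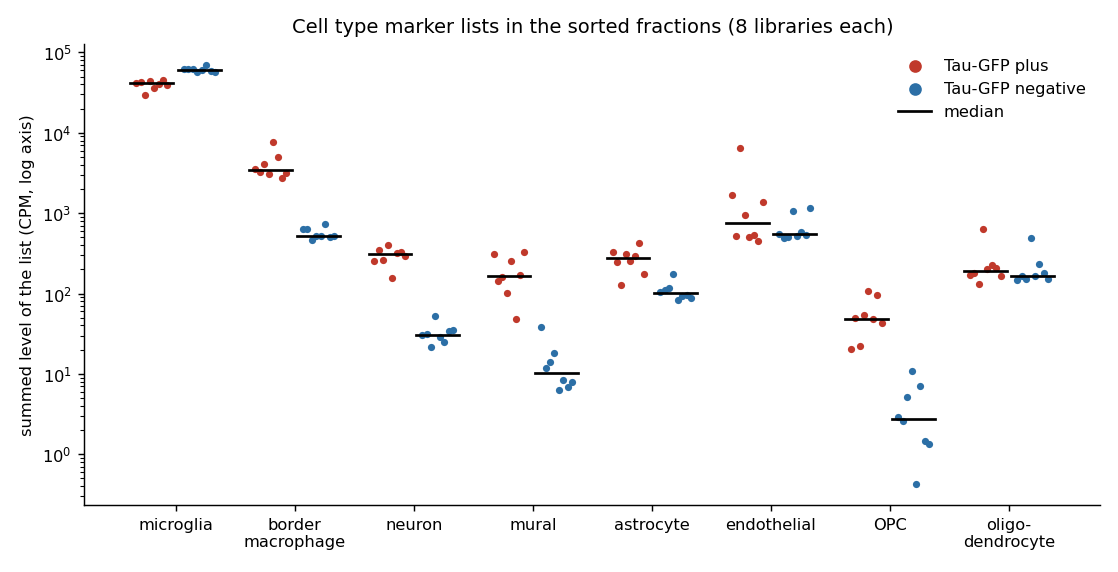
Summed level of 8 cell type marker lists (CPM, log axis) in each of 8 Tau-GFP plus and 8 Tau-GFP negative libraries, with lines at the medians. Microglial sums are 29506 to 45474 CPM in plus and 57371 to 69754 CPM in negative libraries, while border macrophage and neuron sums are higher in every plus library.

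Microglial markers went the other way. Of 12 microglia markers, all microglia-led, 11 were called lower in the plus fraction. This stands against 16.9% of all genes and 41.1% of microglia-led genes. The median log2 fold change of the 12 was -0.60. Their sum was 29506 to 45474 CPM in plus libraries and 57371 to 69754 CPM in negative libraries, so that microglial transcripts led both fractions. Aif1, which encodes IBA1, was the marker without a call, at 143, 204 and 221 CPM in plus and 203, 215 and 244 CPM in negative libraries (-0.14 ± 0.07). How much of each fall given next goes with the larger share of transcripts of other cells was not tested.

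Over all 12138 genes tested, 2516 were called higher and 2054 lower in plus libraries by edgeR's quasi-likelihood test with Benjamini-Hochberg adjustment. The changes differed in size by direction. At least 2-fold differences were called for 1111 higher and 50 lower genes, and 346 genes were at least 8-fold higher, while the deepest fall was -1.94 on the log2 scale. That fall was of Gm3264, a predicted gene of a multigene family with Gm3696 and Gm2897, so its counts are uncertain. Of the 346 genes, 164 were under 1 CPM in the P9 microglia-like cells of both libraries without being placed in either other class, 111 were endothelial-cluster-led and 62 border-macrophage-led.

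Direction followed the class of a gene. Of 388 border-macrophage-led genes 301 were called higher and 1 lower, with a median log2 fold change of 1.11. Of 762 endothelial-cluster-led genes 467 were called higher and 11 lower, with a median of 1.40. Among 2474 microglia-led genes 95 were called higher and 1018 lower, with a median of -0.20. In 384 of these genes every plus library was below every negative library, a pattern found for 4.46% of all genes, and in 12 every plus library was above. Genes shared between classes gave 965 higher and 515 lower of 4367, with a median of 0.05. Microglia-led genes held 31.3% to 39.4% of all counts in plus libraries and 43.9% to 48.0% in negative libraries. Border-macrophage-led genes held 3.47% to 6.45% and 1.76% to 2.05% of counts in plus and in negative libraries.

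**Figure D2:**
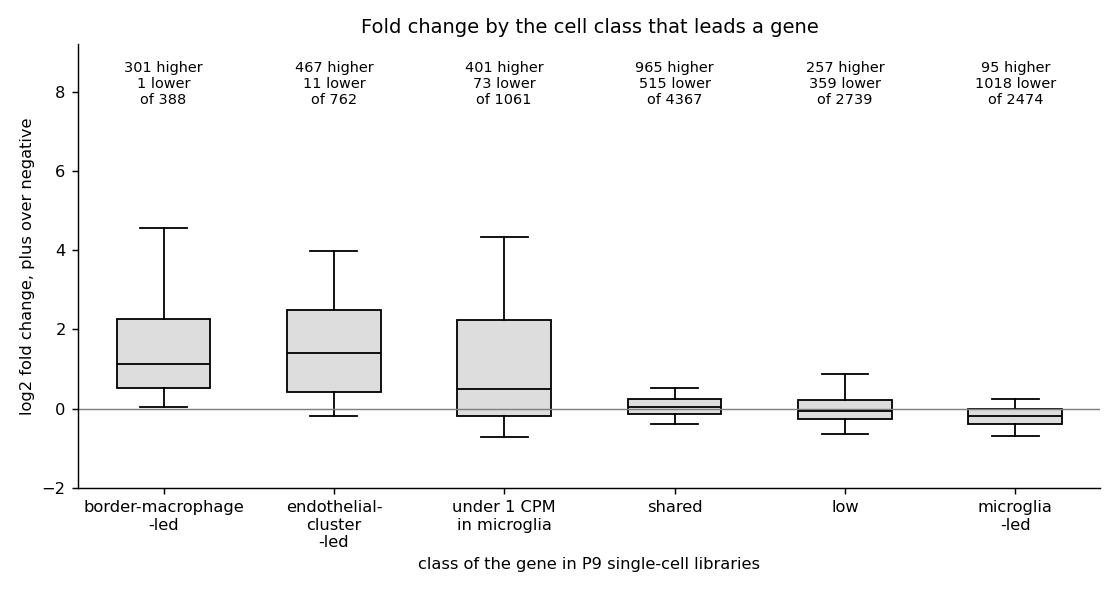
Log2 fold change, plus over negative, of all tested genes by the class that leads each gene in P9 single cells (boxes: quartiles and median, whiskers: 5th to 95th percentile, with counts of called genes). Border-macrophage-led genes have a median of 1.11, endothelial-cluster-led genes 1.40 and microglia-led genes -0.20.

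The libraries that held most of these transcripts differed by class. Plus library 5 was highest of the 8 plus libraries in 214 of the 301 border-macrophage-led genes called higher. Plus library 3 was highest in 279 of the 467 endothelial-cluster-led genes called higher and lowest in 555 of the 1018 microglia-led genes called lower. With any 1 library left out, 945 to 1031 microglia-led genes were called lower and 83 to 107 higher.

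Genes of homeostatic microglia, which maintain surveillance and contact with neurons, were lower throughout. All 20 members of the homeostatic list, each microglia-led, were called lower in plus libraries. This stands against 16.9% of all genes tested and 41.1% of microglia-led genes. The median log2 fold change of the 20 was -0.67, beside -0.20 over all microglia-led genes. Of the 20, 9 are also in the microglia marker list. P2ry12, the ADP receptor that guides processes to injured neurons (chromosome 3, 59216272 to 59262871, minus strand), had 3011, 4202 and 5102 CPM in plus libraries and 7103, 7611 and 8370 CPM in negative libraries, a log2 fold change of -0.91 ± 0.09 (edgeR adjusted p = 7.54e-07). Tmem119, a membrane protein that marks microglia, had 938, 1443 and 1612 CPM in plus libraries and 2407, 2593 and 3111 CPM in negative libraries (-0.94 ± 0.09). Slc2a5, the fructose transporter of microglia, had 206, 296 and 327 CPM in plus libraries and 519.6, 589.8 and 679 CPM in negative libraries (-1.04 ± 0.08). Every plus library was below every negative library for all 3 genes. Sall1, a transcription factor of microglial identity, had 241, 332 and 365 CPM in plus libraries and 492, 550.0 and 613 CPM in negative libraries (-0.76 ± 0.08), again without overlap. Cx3cr1, the receptor of neuronal fractalkine, fell less, by 0.63 ± 0.07.

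The falls were not of 1 size. Within the list they ran from -1.04 for Slc2a5 to -0.24 for Mef2c, a transcription factor gene at 341 ± 22.9 CPM in plus and 403 ± 32.9 CPM in negative libraries (SD, n = 8 each). Csf1r, the receptor that microglia need for survival, fell by 0.49 ± 0.07 on the log2 scale. Among the deepest falls of microglia-led genes outside the list were Nav3, a cytoskeletal protein gene, with 26.3, 44.5 and 56.9 CPM in plus and 77.6, 89.6 and 129 CPM in negative libraries, and the collagen gene Col27a1, with 17.5, 27.7 and 41.1 CPM in plus and 49.7, 56.3 and 68.3 CPM in negative libraries. Neither gene overlapped between the groups. H2-Ab1, an MHC class II chain, also led by fold (-1.10 ± 0.41), but its negative median of 7.12 CPM was near the plus median of 5.87 CPM and 1 negative library, number 3, stood at 47.3 CPM. Without that library the log2 difference was -0.36 with an edgeR adjusted p of 0.198.

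**Figure D3:**
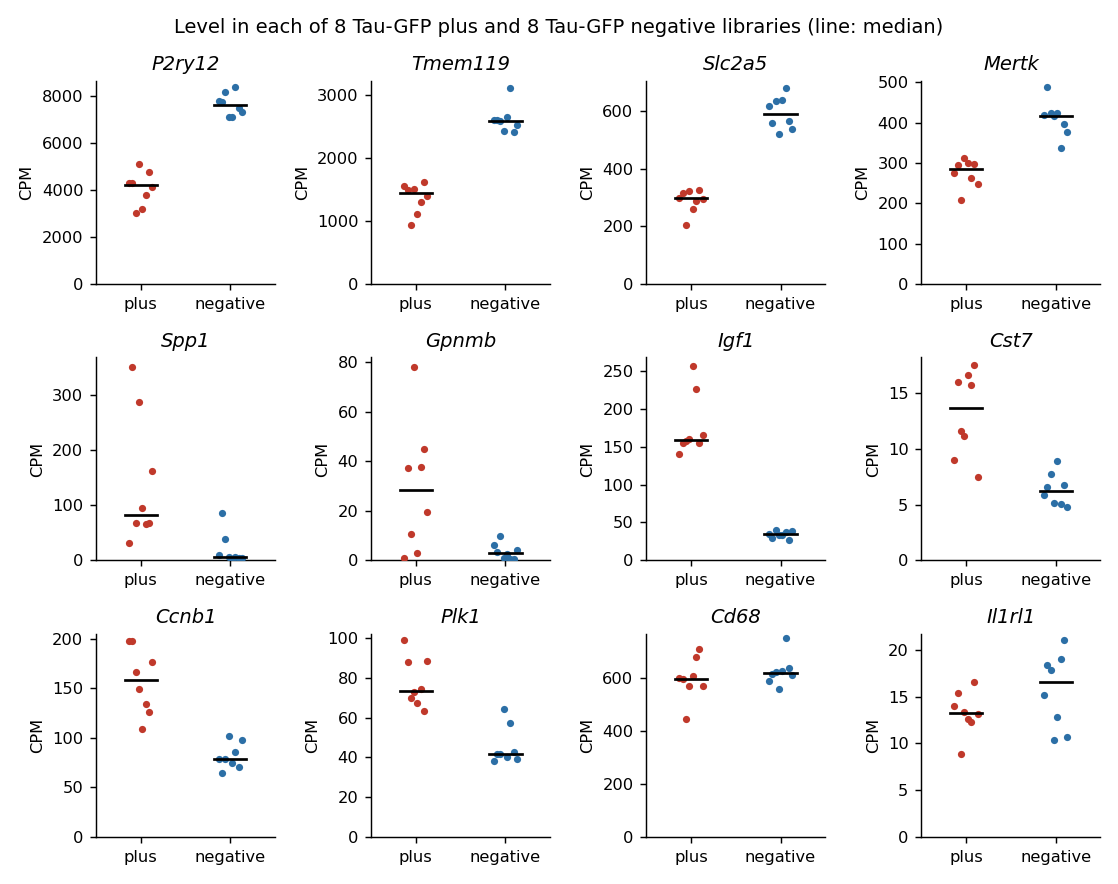
Level (CPM) of 12 genes in each of 8 Tau-GFP plus and 8 Tau-GFP negative libraries, with lines at the medians. P2ry12, Tmem119, Slc2a5 and Mertk are lower and Igf1 and Ccnb1 higher in every plus library, Spp1, Gpnmb, Cst7 and Plk1 are higher with some overlap, and Cd68 and Il1rl1 overlap throughout.

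Genes of the phagocytic state of early postnatal microglia, named for Spp1, Gpnmb and Igf1, moved upward. Of 23 tested members 17 were called higher, against 20.7% of all genes tested, and 1 lower, the protease gene Ctsl. Their median log2 fold change was 1.32. The members differ in the class that leads them, and all 7 that border-macrophage-like cells lead were called higher, with a median of 1.99, whereas of the 8 led by microglia 3 were called higher and 1 lower, with a median of 0.22. Beside this gain, the border macrophage marker list was higher in every plus library, and its part in the gain was not tested.

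Spp1, the secreted phosphoprotein osteopontin (chromosome 5, 104435118 to 104441050, plus strand), had 31.1, 81.8 and 352 CPM in plus libraries and 2.84, 6.68 and 86.3 CPM in negative libraries, a log2 fold change of 2.80 ± 0.68 (edgeR adjusted p = 0.00347). The groups overlapped, since 2 negative libraries, at 38.1 and 86.3 CPM, lay above the lowest plus library. In P9 single cells Spp1 had 79.4 CPM in microglia-like and 72.9 CPM in border-macrophage-like cells. Gpnmb, a lysosome-associated glycoprotein, had 0.956, 28.5 and 78.0 CPM in plus libraries and 0.447, 2.98 and 9.68 CPM in negative libraries (3.05 ± 0.72), with its lowest plus library inside the negative range. Igf1, a growth factor, had 140, 159 and 256 CPM in plus libraries and 26.9, 34.6 and 39.7 CPM in negative libraries (2.36 ± 0.13, edgeR adjusted p = 7.51e-10), without overlap. Its level in P9 single cells was 389 CPM in border-macrophage-like and 36.1 CPM in microglia-like cells.

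Other genes of that state followed in part. Clec7a, the receptor of fungal glucans, which has no entry in the single-cell table, had 26.3, 33.6 and 59.5 CPM in plus libraries and 5.59, 9.44 and 14.2 CPM in negative libraries (1.94 ± 0.19). Cst7, an inhibitor of lysosomal proteases, had 7.48, 13.6 and 17.5 CPM in plus libraries and 4.81, 6.22 and 8.85 CPM in negative libraries (1.05 ± 0.19), with overlapping ends, and in P9 single cells its 13.4 CPM in microglia-like cells stood above the 2.29 CPM of border-macrophage-like cells. Apoe, the lipid carrier, had 6362, 7911 and 12280 CPM in plus libraries and 3298, 4177 and 4679 CPM in negative libraries (1.02 ± 0.11), and border-macrophage-like cells held 41122 CPM of it, against 6762 CPM in microglia-like cells. A further 3 members of the state gave no call. Cd68, a lysosomal glycoprotein used as a marker of phagocytes, had 443, 596 and 707 CPM in plus libraries and 559, 619 and 749 CPM in negative libraries (-0.07 ± 0.08, edgeR adjusted p = 0.516). Lpl, a lipase, differed by 0.18 ± 0.11, and Itgax, the integrin CD11c, by 0.89 ± 0.41 (edgeR adjusted p = 0.102). Without plus library 3 Lpl gained a call at 0.25, and without plus or negative library 1 Itgax gained one. The call of Lgals3, the galectin, was lost in 13 of the 16 fits without 1 library and is reported here only as 5.68 CPM in the median plus and 1.51 CPM in the median negative library.

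The P9 single cells hold a microglia-like cluster led by Spp1 (257 and 206 wild-type cells), and genes raised in it were set beside the sort. Of the microglial genes tested, 35 were at least 2-fold higher in that cluster than in other microglia-like cells of both libraries. In plus libraries 24 of these 35 were called higher, against 20.7% of all genes tested. Every call was in that direction, and the median log2 fold change was 0.82. For 17 genes the groups did not overlap, with plus above, against 6.82% of all genes, and none of the 17 is microglia-led. Of the 35, 11 are also members of the phagocytic state list above, so the set is not separate from that list. Border macrophages also make much of this set, and among the 7 genes of it that microglia lead 4 were called higher, Spp1, Csf1, Pld3 and Ctsb. Csf1, a growth factor of macrophages, averaged 32.8 ± 9.54 CPM in plus and 20.6 ± 3.16 CPM in negative libraries (0.67 ± 0.16). Ctsb, the protease cathepsin B, averaged 7271 ± 965 CPM and 6038 ± 461 CPM in plus and in negative libraries (0.27 ± 0.08). Pld3, a lysosomal exonuclease, differed by 0.30 ± 0.07. Ank, Ctsd and Ccl6 were the 3 without a call, at 0.28 ± 0.20, -0.07 ± 0.08 and 0.08 ± 0.10.

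**Figure D4:**
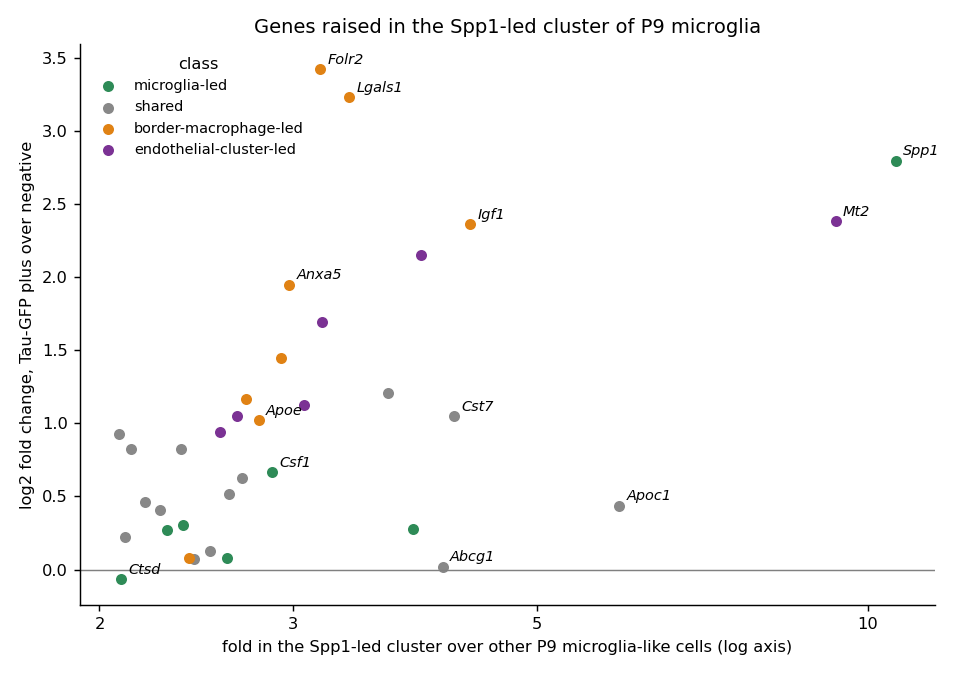
The 35 microglial genes raised in the Spp1-led cluster of P9 microglia, by their fold in that cluster (log axis) and their log2 fold change, Tau-GFP plus over negative, coloured by class. The set has a median log2 fold change of 0.82, and the 7 microglia-led genes include Spp1 at 2.80 and Ctsd at -0.07.

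Receptors and opsonins that bind cargo split by class. Of 28 tested, 9 were called higher and 13 lower, beside 20.7% and 16.9% of all genes tested. All 6 that border macrophages lead were higher, such as the lipid scavenger receptor Cd36 at 240.3 ± 114 CPM in plus and 6.06 ± 2.82 CPM in negative libraries, the phosphatidylserine receptor Timd4 (4.73 ± 0.57) and Axl, a receptor kinase of the same function (0.44 ± 0.12). Of the 12 that microglia lead 11 were lower. Over all border-macrophage-led genes 77.6% were called higher, and over all microglia-led genes 41.1% were called lower. Mertk, the receptor kinase that clears apoptotic cells, had 208, 285 and 313 CPM in plus libraries and 338, 418 and 489 CPM in negative libraries (-0.58 ± 0.08, edgeR adjusted p = 2.55e-05), without overlap. Its bridging protein Pros1 fell by 0.50 ± 0.07, and Itgam, the CD11b chain of the complement receptor by which the cells were enriched, fell by 0.71 ± 0.07. Trem2, a lipid receptor of microglia, had 405, 619.5 and 776 CPM in plus libraries and 714, 785 and 882 CPM in negative libraries (-0.38 ± 0.09), with overlap. C1qc differed by -0.43 ± 0.35 and was the microglia-led member without a call.

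The machinery behind the receptors was lower or had no call. Of 20 genes of engulfment and phagosome maturation 10 were called lower, beside 16.9% of all genes tested and 41.1% of microglia-led genes. Their median was -0.21, beside -0.20 over all microglia-led genes. Elmo1, an activator of Rac at the phagocytic cup, averaged 567 ± 57.9 CPM in plus and 910.4 ± 85.0 CPM in negative libraries (-0.68 ± 0.07). The GTPase genes Cdc42 (-0.01 ± 0.04) and Rac1 (0.06 ± 0.09) had no call.

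Lysosomal genes moved both ways. Of 35 tested 8 were called higher and 10 lower, beside 20.7% and 16.9% of all genes tested, with a median of -0.07. Of the 18 that microglia lead 1 was called higher and 8 lower, beside 41.1% of all microglia-led genes called lower. Genes of the proton pump in the list were called in both directions. Atp6v1a, the catalytic subunit, had 166, 205 and 229 CPM in plus libraries and 90.7, 115 and 139 CPM in negative libraries (0.79 ± 0.08, edgeR adjusted p = 1.56e-06), without overlap. Atp6v1b2 (0.34 ± 0.07) and Atp6v0d1 (0.35 ± 0.06) were called higher too, while the accessory subunit Atp6ap1 was lower by 0.12 ± 0.05 and Atp6v0c (0.12 ± 0.12) had no call. The protease Ctss, which microglia lead, had 2051, 2866 and 3328 CPM in plus libraries and 3966, 4293 and 5118 CPM in negative libraries (-0.63 ± 0.08). Lipa, the acid lipase of lysosomes, was higher by 0.38 ± 0.08.

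**Figure D5:**
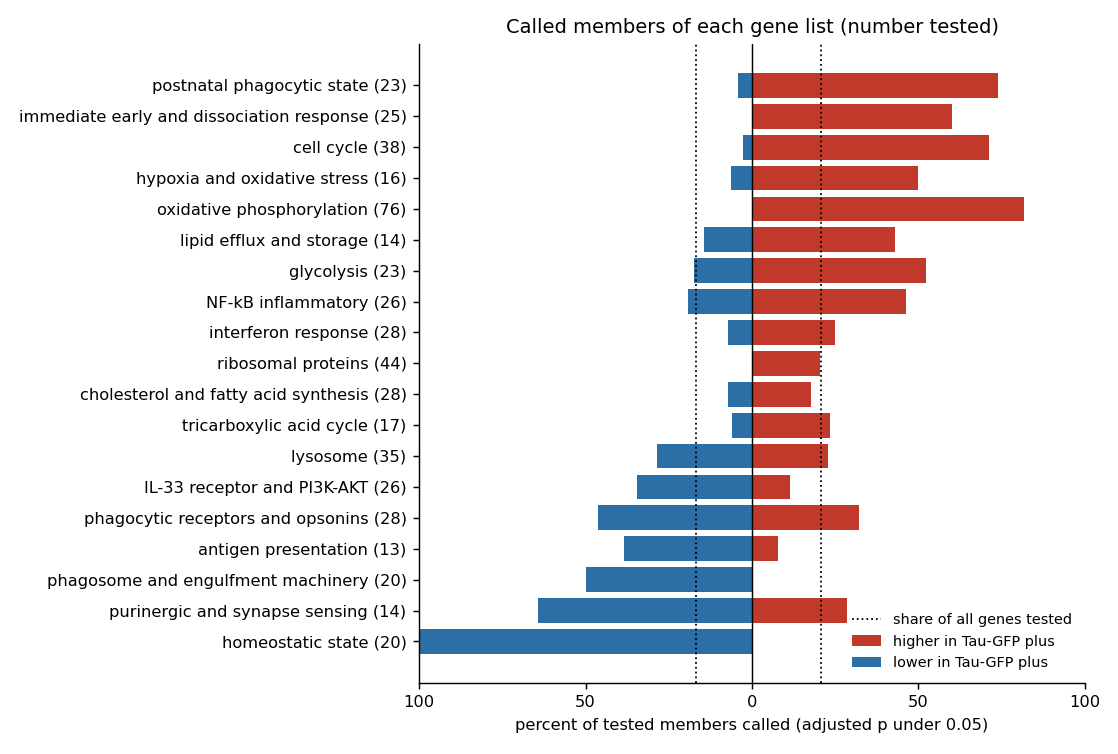
Percent of the tested members of each gene list called higher (right) or lower (left) in Tau-GFP plus libraries, lists ordered by median log2 fold change, with dotted lines at the shares over all genes tested, 20.7% and 16.9%. Cell cycle and oxidative phosphorylation extend to the right and the homeostatic list to the left.

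Cell cycle genes were higher in plus libraries, those led by microglia included. Of 38 tested members 27 were called higher, against 20.7% of all genes tested, and 1 lower, with a median log2 fold change of 0.65. Among the 11 that microglia lead 9 were called higher, and in the border-macrophage-like class the whole list summed to 1555 CPM, against 5121 CPM in microglia-like cells. The endothelial cluster held more, 9080 CPM. Ccnb1, the cyclin of mitotic entry, had 109, 158 and 198.0 CPM in plus libraries and 64.0, 78.6 and 101 CPM in negative libraries (0.95 ± 0.12). The replicative helicase genes Mcm2, Mcm4, Mcm5, Mcm6 and Mcm7 differed by -0.19 to -0.03 without a call, and Mcm3 was lower by 0.20 ± 0.07. Of the genes of nucleotide supply, Rrm1 was higher by 0.42 ± 0.07 and Tyms differed by 0.03 ± 0.07. Plk1, a mitotic kinase, had 63.2, 73.6 and 99.1 CPM in plus libraries and 38.2, 41.7 and 64.5 CPM in negative libraries (0.77 ± 0.12), with a small overlap. Ube2c, the ubiquitin-conjugating enzyme of mitotic exit, had 86.3, 111 and 137 CPM in plus libraries and 43.1, 49.5 and 61.1 CPM in negative libraries (1.12 ± 0.11, edgeR adjusted p = 3.97e-07), without overlap. Cenpf, a kinetochore protein, had 53.9, 69.3 and 91.7 CPM in plus libraries and 28.0, 40.6 and 44.2 CPM in negative libraries (0.88 ± 0.12). Of the other microglia-led genes with the largest gains, Tuba1c, a tubulin, had 122, 158 and 174 CPM in plus and 70.3, 83.1 and 101 CPM in negative libraries, and Gas2l3, a cytokinesis protein, had 28.996, 42.3 and 52.4 CPM in plus and 10.6, 18.9 and 28.972 CPM in negative libraries.

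Promoters of mitotic genes are known for pairs of CCAAT boxes and for the element TTTGAA near the start site. The promoters of 3 genes of this group are shown because the genes moved together, each from 250 bases before to 50 bases after the start in RefSeq on GRCm38.p6, 5′ to 3′ on the strand of the gene. They lie at chr7:122159185-122159484 (plus strand) for Plk1, chr2:164769679-164769978 (plus strand) for Ube2c and chr1:189688037-189688336 (minus strand) for Cenpf. Capitals mark CCAAT and TTTGAA on either strand, and in Ube2c the run CCAATTGG holds a match on each strand.
Plk1: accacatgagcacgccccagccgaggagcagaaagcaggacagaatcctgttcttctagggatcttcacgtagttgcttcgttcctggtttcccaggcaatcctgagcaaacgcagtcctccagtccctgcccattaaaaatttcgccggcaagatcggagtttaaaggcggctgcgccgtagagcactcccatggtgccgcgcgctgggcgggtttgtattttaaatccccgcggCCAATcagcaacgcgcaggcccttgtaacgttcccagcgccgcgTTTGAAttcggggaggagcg
Ube2c: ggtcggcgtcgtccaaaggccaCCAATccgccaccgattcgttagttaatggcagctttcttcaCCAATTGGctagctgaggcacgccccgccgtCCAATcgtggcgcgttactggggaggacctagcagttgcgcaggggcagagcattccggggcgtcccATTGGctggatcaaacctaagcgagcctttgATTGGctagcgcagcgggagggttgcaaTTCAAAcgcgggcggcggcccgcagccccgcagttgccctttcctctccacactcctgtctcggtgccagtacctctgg
Cenpf: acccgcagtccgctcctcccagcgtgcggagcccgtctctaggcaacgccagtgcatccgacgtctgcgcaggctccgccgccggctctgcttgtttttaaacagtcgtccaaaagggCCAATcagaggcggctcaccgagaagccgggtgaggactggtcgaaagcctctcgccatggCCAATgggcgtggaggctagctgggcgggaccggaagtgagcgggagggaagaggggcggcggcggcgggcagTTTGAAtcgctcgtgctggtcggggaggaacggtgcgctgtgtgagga
Plk1 has 1 CCAAT and 1 TTTGAA, Ube2c 6 and 1, and Cenpf 2 and 1. Both motifs were present in 15 of the 22 cell cycle genes called higher that have a promoter in the table (68.2%), in 16 of 31 genes of the list (51.6%), in 6.02% of 9041 tested genes and in 7.97% of 27025 promoters. A match of these letters is a description of the window only.

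Genes of oxidative phosphorylation were higher by small and even amounts. Of 76 tested nuclear-encoded members 62 were called higher, against 20.7% of all genes tested. Each call was in that direction, and the median log2 fold change was 0.32. Most, 69, were shared between the P9 cell classes, and of the 7 that microglia lead 4 were called higher, with a median of 0.15. Cox5b, a subunit of cytochrome c oxidase, had 85.9, 93.2 and 106 CPM in plus libraries and 60.2, 65.5 and 74.4 CPM in negative libraries (0.51 ± 0.06, edgeR adjusted p = 3.52e-06), without overlap. Ndufc1, a subunit of complex I, was higher by 0.61 ± 0.10. Glycolysis gave 12 higher and 4 lower of 23, beside 20.7% and 16.9% of all genes tested. Its lower calls were 2 without plus library 4 or negative library 2, 7 or 8. Gapdh had 1159, 1255 and 1312 CPM in plus libraries and 812, 958 and 1046 CPM in negative libraries (0.38 ± 0.05), and Ldhb, a lactate dehydrogenase subunit that microglia lead, had 275, 333 and 409.8 CPM in plus libraries and 451, 509.6 and 548 CPM in negative libraries (-0.56 ± 0.07).

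Inflammatory and early response genes were higher mainly where border macrophages lead them. Of 25 tested genes of the immediate early response, which tissue dissociation also induces, 15 were called higher, against 20.7% of all genes tested. Of these, 11 belong to the 14 that border macrophages lead. Egr2, a zinc finger factor, had 94.3, 159 and 343 CPM in plus libraries and 21.5, 27.7 and 57.3 CPM in negative libraries (2.45 ± 0.25), and Egr1 differed by -0.19 with no call. Of 26 tested genes of the NF-kB response 12 were called higher and 5 lower, beside 20.7% and 16.9% of all genes tested. Among them 10 of the 11 border-macrophage-led members were higher and 3 of the 4 microglia-led members lower. Over all border-macrophage-led genes 77.6% were called higher, and over all microglia-led genes 41.1% were called lower. Ccl2, a chemokine for monocytes, had 278, 397 and 739 CPM in plus libraries and 13.2, 34.9 and 56.6 CPM in negative libraries (3.57 ± 0.31), beside 5418 CPM in P9 border-macrophage-like and 86.7 CPM in microglia-like cells. Nfkb1, a subunit of the factor itself, fell by 0.50 ± 0.07.

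The receptor of IL-33, the cytokine of the series, was low and had no call. Il1rl1, which encodes ST2 (chromosome 1, 40429570 to 40465415, plus strand), had 8.89, 13.3 and 16.6 CPM in plus libraries and 10.4, 16.5 and 21.1 CPM in negative libraries (-0.24 ± 0.16, edgeR adjusted p = 0.258), and its co-receptor Il1rap differed by -0.06 ± 0.20. The ranges overlapped for both genes. Of 26 genes of this receptor and of PI3K, AKT and mTOR 3 were called higher and 9 lower, beside 20.7% and 16.9% of all genes tested. Among the lower genes 7 are of the 8 that microglia lead, beside 41.1% of all microglia-led genes called lower. Rptor, the scaffold of mTOR complex 1, averaged 133 ± 23.2 CPM in plus and 211 ± 22.6 CPM in negative libraries (-0.66 ± 0.10). Inpp5d, a phosphatase that opposes PI3K, fell by 0.49 ± 0.07 and Akt1 by 0.32 ± 0.06, while Akt2 was higher by 0.39 ± 0.08.

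The TMRM sort shares no library with the Tau-GFP sort, so its values can be set beside it. In TMRM high against low cells 20.4% of genes were called higher and 9.84% lower. Of 93 microglia-led genes called higher in Tau-GFP plus libraries and tested in both, 70 were also called higher in TMRM high cells, which is 75.3% of the Tau-GFP genes and 16.7% of the 420 microglia-led genes higher in TMRM high cells. Of 1006 called lower, 278 (27.6%) were also lower in TMRM high cells, or 81.3% of 342. A further 74 genes lower in plus libraries were called higher in TMRM high cells, 17.6% of those 420, and 1 gene higher in plus libraries was lower there. For comparison, 3.84% of all 2424 microglia-led genes tested in both were higher and 41.5% lower in plus libraries. In TMRM high cells 17.3% of the same 2424 genes were called higher and 14.1% lower. Of the 38 cell cycle genes 32 were called higher in TMRM high cells, and their part in the overlap was not tested. P2ry12 was lower in TMRM high cells by 0.65 and Tmem119 by 1.03 on the log2 scale, while Spp1 was higher by 4.93 and Gpnmb by 5.38. Trem2 differed in sign, with 0.28 in TMRM high over low cells, and Mertk was not called there. The TMRM values are on a log2(FPKM + 1) scale, which understates changes of low genes.

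In cultured cells with IL-33 over medium alone, 4.22% of genes were called higher and 3.54% lower. Of 92 microglia-led genes higher in plus libraries 3 were also higher with IL-33, and 3 were lower. Of 973 genes lower in plus libraries 99 were also lower with IL-33, which is 71.2% of 139. Another 45 were higher with IL-33, which is 48.4% of 93. Of all 2402 microglia-led genes tested in both, 40.5% were lower in plus libraries. With IL-33, 3.87% of the 2402 were higher and 5.79% lower. The levels in single cells at P28 were set beside those at P9. Of the 1018 microglia-led genes lower in plus libraries 68.3% were above both P9 libraries in both P28 libraries, beside 50.8% of all 2474. Of the 95 higher genes 84.2% were below P9 at P28 in the same way, beside 34.1% of all. The cell cycle list holds 9 of the 95, among them Plk1 and Ccnb1. That list has only 11 microglia-led members, so the 9 may leave out other genes of cell division among the 95. After Spp1, the largest gains among the 95 at 5 CPM or more were of Gas2l3, Ccnb1, Kif11 and Cenpf. The part of cell division genes in these shares was not tested.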

How the data were processed

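The deposited gene table holds RSEM expected counts per gene for 23420 genes; the authors aligned with Bowtie2 to mm10, per the submitters' processing notes. Of its columns, 5 have no sample label and were not used, and 27 symbols that a spreadsheet turned into dates (0.144% of the Tau-GFP counts) stayed unnamed. Expected counts were rounded and tested with edgeR 4.0.16 (R 4.3.3) by its quasi-likelihood F test with TMM scaling, filterByExpr and Benjamini-Hochberg adjustment over all 12138 genes kept, without a replicate term, at an adjusted p under 0.05. Levels carry no correction for gene length, so they compare libraries and not genes. On simulated counts of this comparison 85.5% of 200 changed genes were recovered (12006 genes run).

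The deposited single-cell table holds UMI counts of 15507 barcodes, made by the authors with Cell Ranger, per the submitters' processing notes. Barcodes with at least 500 genes and at most 10% mitochondrial counts (15335) were clustered with scanpy 1.11.5 and Leiden at resolution 1, giving 18 clusters that were named from marker lists. A doublet caller marked 54 barcodes, too few to be used, so no doublets were removed, and 135 barcode sequences occur in more than 1 library. Single-cell levels are CPM of UMIs summed per class and library. Of the tested genes, 325 were matched through an older symbol and 347 have no single-cell entry. The classes need at least 5 UMIs in the leading class. Genes that neither other class leads and that had under 1 CPM in microglia-like cells of both libraries form a class of their own, and may have a higher level in other cells.

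The authors deposited FPKM values for the TMRM libraries, made with TopHat2 2.0.10 and Cufflinks 2.0.2 per the submitters' processing notes. They were tested with limma 3.58.1 (trend) as log2(FPKM + 1) over genes with a mean FPKM of at least 1. The IL-33 libraries (7 with IL-33 and 7 in medium) were tested like the Tau-GFP libraries. Depth is unknown for the FPKM files.

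Genes named in the text are the reporter gene, the microglia and neuron markers, ST2 and chosen genes of the phagocytic state, the 15 called genes with the largest fold in each direction at 5 CPM or more, and up to 4 called members of each list with the smallest p. Others named to fill out a list, a class or a motif set were chosen after their values were seen. The comparison, gene lists and motifs were chosen with earlier results of these data known, so they are no independent support. Promoters are from RefSeq and positions from GENCODE M21.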

Additional observations from a re-analysis of the deposited data

Results flagged for a closer look

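In each group of 8 libraries a library was marked where its gap to the nearest other library, over the range of the group, exceeded the critical value of Dixon's test for that number of samples. Chance marks about 1 in 20 groups, and many lists and genes were looked at.

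Tau-GFP plus library 3 was the highest for the sums of the endothelial list (6373 CPM), the monocyte list (947 CPM), the choroid plexus and ependyma list (258 CPM) and glycolysis (5387 CPM). It was the lowest for engulfment machinery (4761 CPM) and for the IL-33 receptor and PI3K list (1819.5 CPM). Itm2a stood at 621 CPM and Aif1 at 143 CPM there. Plus library 5 was the highest for the border-associated macrophage list (7750 CPM), immediate early genes (6481 CPM), Lyve1 (999.7 CPM), F13a1 (1848 CPM), Ccl2 (739 CPM) and Clec7a (59.5 CPM). Oligodendrocyte sums were highest in plus library 4 (642 CPM) and negative library 4 (496 CPM), and the neutrophil sum of plus library 7 was 0.471 CPM.

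Among negative libraries, number 6 was the highest for the microglia list (69754 CPM), the homeostatic list (89375 CPM), the lysosome list (74149 CPM), Tmem119 (3111 CPM), Cd68 (749 CPM) and Ctss (5118 CPM). Negative library 8 was the highest for the monocyte list (145 CPM) and the neutrophil list (2.24 CPM), and the lowest for lipid efflux and storage (4976 CPM) and Apoe (3298 CPM). Negative library 4 was the highest for the neuron list (52.7 CPM), the astrocyte list (173 CPM), Gja1 (14.8 CPM) and Slc17a7 (0.112 CPM). Single values that stood apart were the mural sum of negative library 1 (38.6 CPM), Spp1 in negative library 2 (86.3 CPM), H2-Ab1 in negative library 3 (47.3 CPM), and Nav3 (129 CPM) and Dlx1 (0.527 CPM) in negative library 5.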

How the results depend on the processing

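The counts of called genes kept within 1.5 times of the reported ones under DESeq2 (3535 higher and 2046 lower of 20817 genes), RLE or upper-quartile scaling, no low-count filter (3393 and 2025), a mean of at least 5 CPM, and well row as a covariate. Restricted to microglial genes, 1409 were called higher. Well row stands for the letter E or F that opens the code in each sample title. The labels do not state what this letter means. With only the 2 libraries per group of row F, 240 genes were called higher and 41 lower. Among them were 4 microglia-led genes higher and 34 lower, and 100 border-macrophage-led and 56 endothelial-cluster-led genes higher. The row F libraries are numbers 7 and 8, both among those with Xist at most 3.92 CPM, given below. There H2-Ab1 turned to 0.34. Row F gave the same direction for 98.0% of the higher and 97.8% of the lower calls. These calls came from the fit that held the row F libraries too, so this agreement is no separate support. Without the 6 libraries whose endothelial sums were highest, chosen after seeing the data, 1320 genes were called lower and 60 microglia-led genes higher. A floor of 30 CPM for a microglial gene left 986 microglial genes lower and put 935 higher and 918 lower genes in the low class, by its own construction. Leaving out 1 library at a time, also added after seeing the data, gave 2284 to 2601 genes higher, 1870 to 2121 lower, 83 to 107 microglia-led genes higher, 945 to 1031 lower, and 289 to 301 border-macrophage-led and 370 to 487 endothelial-cluster-led genes higher. Of the 161 tested named genes 154 were called, and apart from H2-Ab1 these kept their direction in each alternative that tested them; 102 lost their call in row F.

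With the replicate number as a replicate block, 2445 genes were called higher and 2092 lower. Libraries of the same number were not clearly paired: their correlation of deviations ran from -0.161 to 0.280, and 4 of 8 plus libraries correlated best with the negative library of their own number. As a hint from the data, the sex-linked list, Xist and Y-linked genes summed, ran from 1790.7 to 2558.4 CPM in libraries 1 to 5 and from 189.97 to 226.96 CPM in libraries 6 to 8 of both groups. Xist alone was at 1790.7 CPM or more in libraries 1 to 5 and at most 3.92 CPM in libraries 6 to 8 of both groups. The main limits are these: cell purity was not measured, and libraries may not be separate animals. The libraries also hold transcripts typical of border macrophages, neurons and other cells, and their source was not tested. The class of a gene rests on few endothelial-cluster cells, and droplet libraries carry free RNA. Low transcripts such as Mapt rest on single counts.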

Other observations

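Over all genes tested 20.7% were called higher and 16.9% lower in Tau-GFP plus libraries by edgeR's quasi-likelihood test; log2 fold changes below are given with their SE. Of 14 tested genes of purinergic signalling and synapse sensing 4 were called higher and 9 lower in plus libraries. All 8 that microglia lead were lower, beside 41.1% of all microglia-led genes. Among the 8 are the ADP receptor P2ry13 (-0.87 ± 0.09) and the ectonucleotidase Entpd1 (-0.51 ± 0.07). C5ar1, the receptor of the complement fragment C5a, averaged 177 CPM in plus and 71.4 CPM in negative libraries (1.31 ± 0.13), and border macrophages lead it. Interferon response genes gave 7 higher and 2 lower calls of 28, of which 6 higher calls belong to the 12 that border macrophages lead. Antigen presentation gave 1 higher and 5 lower of 13, hypoxia and oxidative stress 8 higher and 1 lower of 16, lipid efflux and storage 6 and 2 of 14, and cholesterol and fatty acid synthesis 5 and 2 of 28. The 2 lower calls of the last list became 0 or 1 without plus library 1, 2, 4, 5, 6 or 8 or negative library 1, 2, 6 or 8, and its higher calls became 3 without plus libraries 5, 6 and 7. Plin2, a lipid droplet coat protein, averaged 165 ± 30.1 CPM in plus and 73.6 ± 8.2 CPM in negative libraries (SD, n = 8 each; 1.17 ± 0.10), and the groups did not overlap. The tricarboxylic acid cycle gave 4 higher and 1 lower of 17. Of 44 ribosomal protein genes 9 were called higher, but 4 without negative library 3 and none without plus libraries 5, 6 and 7, where erythroid sums were high (lowest edgeR adjusted p = 0.0599, and 2 genes at an unadjusted p under 0.05). Of the monocyte markers Vcan was the 1 called higher of 5 tested (4.28), and 2 were called without plus library 7 or negative library 8. Cd79b, a B cell receptor chain and the only lymphocyte marker tested, was lower by 0.50, but it is microglia-led in the P9 single cells.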
